A study of Mus musculus with 6 samples.

Results

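Six2, Six4, Eya1, Eya3, Eya4, Tbx15, Sox6, Prox1 and Vgll2 are transcription factors and coregulators from families that set the fast or slow identity of muscle fibres, and their transcripts were followed in the quadriceps of exercised and sedentary AR97Q mice. These 9 genes were chosen by symbol among the 25005 genes and transcripts tested, through the RefSeq accession that the array gives each probe. They had 21 probes that were not controls, of 56605 on the array. Of these, 19 were bright enough to test, which asked for a flag well above background on 3 or more of the 6 arrays, and all 9 genes could be tested.

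AR97Q mice carry a human androgen receptor gene with an expanded CAG repeat on a C57BL/6J background and serve as a mouse model of SBMA (spinal and bulbar muscular atrophy), a disease of motor neurons and muscle. All 6 mice were males with the transgene, examined at 9 weeks of age, with 1 array per mouse. The exercise group (n = 3) ran on a forced wheel at 5 m per min for 60 min per day, 5 days per week, for 4 weeks from 5 weeks of age, and the sedentary group (n = 3) did not. No wild-type quadriceps was analysed here, so each value below compares exercised with sedentary muscle that carries the same disease gene. The promoter that drives the transgene is not given in the sources used here.

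Six2 and its homeodomain relatives bind DNA at MEF3 motifs and need Eya coactivators to switch on muscle genes, while Dach proteins act with them as corepressors. In adult limb muscle, Eya1 is known for driving fast-twitch genes, Tbx15 for glycolytic fast fibres, and Sox6 for silencing slow-twitch genes in fast fibres. Prox1 is known for keeping slow-twitch genes on, and Vgll2 is a muscle cofactor of the Tead factors, which bind MCAT motifs.

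Signals were log2 transformed and set against the 75th percentile of each array, so a level of 1 is a signal of 2 times that percentile (P75). A gene passed the test at a limma adjusted p under 0.05 (Benjamini-Hochberg over all 25005), and was a DEG if its absolute log2 fold change was also at least 1. The signal at P75 was 251 to 257 on the exercise arrays and 310 to 384 on the sedentary arrays. Scaling therefore shifts every gene. The median log2 fold change of all genes was 0.03 as scaled here, -0.45 with no scaling, -0.13 in the deposited table of values and 0.11 with scaling on the array median, and the share of passing genes that were higher was 65.2%, 5.19%, 26.8% and 75.4% in that order. All arrays shared 1 slide and 1 scan, but Sedentary 2 and Sedentary 3 lay in the second strip of the slide, whereas the exercise arrays and Sedentary 1 lay in the first. Across all genes tested, Sedentary 1 correlated with the exercise arrays at r of 0.986 to 0.988, against 0.979 to 0.983 for Sedentary 2 and Sedentary 3. Strip and mouse cannot be told apart for these arrays, so the differences of the 9 genes, and of some others, are also given against Sedentary 1 alone.

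Of the 9 genes, Six2, Tbx15 and Sox6 were higher in the exercise group and Prox1 was lower. Among all genes tested, 11.5% passed the test as higher and 6.12% as lower, against 3 and 1 of the 9. The median log2 fold change of the 9 genes was 0.09, beside 0.03 over all genes. In bulk tissue, fewer cells of a type and less RNA per cell cannot be told apart. Groups did not overlap for 8 of the 9 genes, 5 of them higher and 3 lower in exercised muscle, where 43.2% of all genes did not overlap, 25.0% higher and 18.2% lower.

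**Figure D1:**
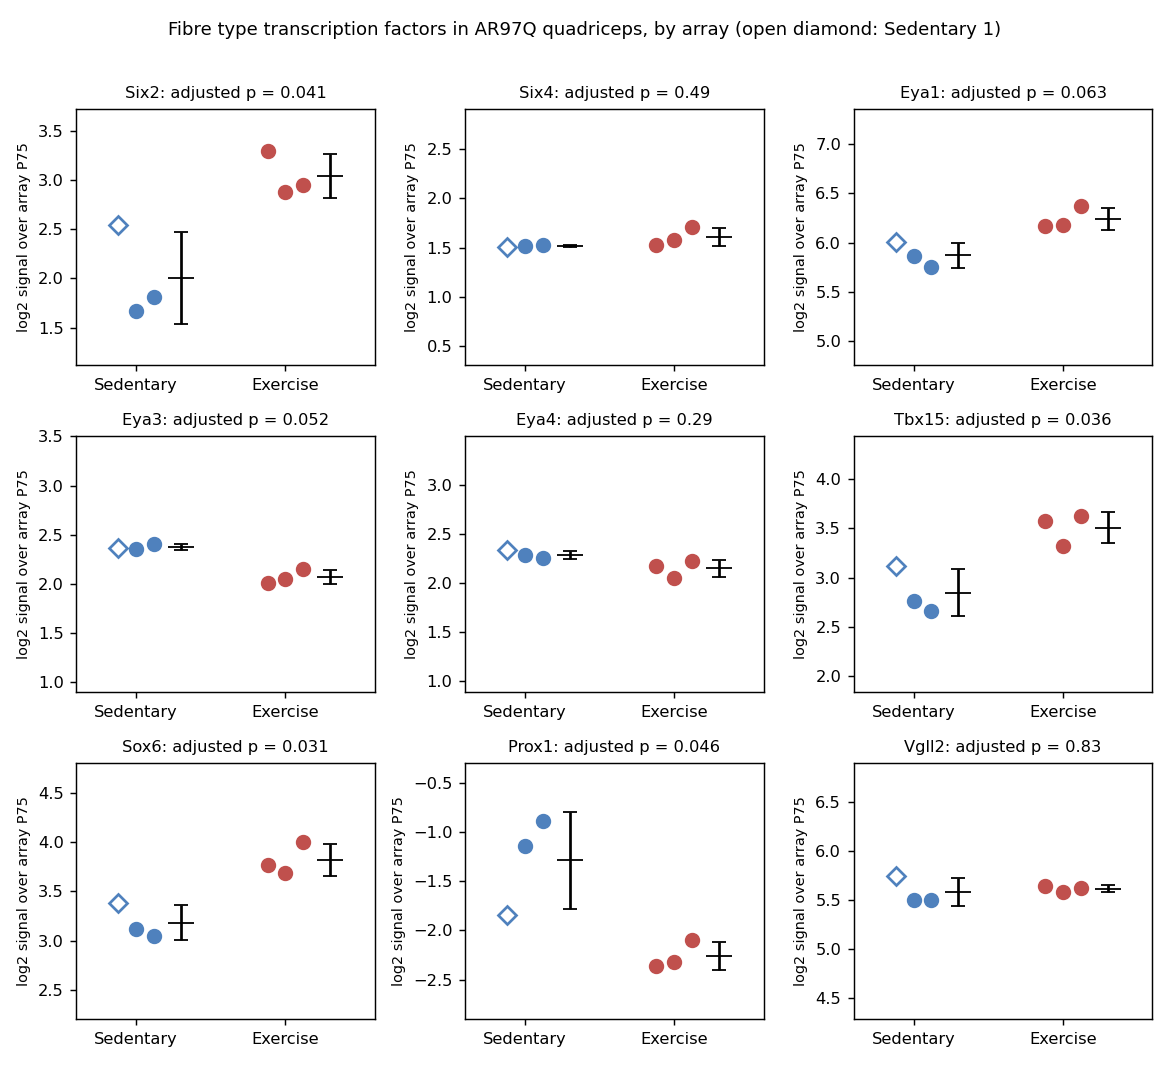
Level of each gene (log2 signal over the 75th percentile, P75, of its array) on the 3 sedentary and 3 exercise arrays, with the mean and SD of each group beside the points and the limma adjusted p above; every panel spans the same log2 range. Sedentary 1 (open diamond) lay nearest to the exercise group for Six2, Tbx15, Sox6, Prox1 and Eya1, and Vgll2 is the gene whose groups overlap.

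Six2, a homeodomain factor best known from kidney and skull progenitors, was higher in the exercise group. Its level was 3.30, 2.87 and 2.95 on the exercise arrays and 2.54, 1.67 and 1.81 on the sedentary arrays. Each exercised mouse was above each sedentary mouse, and Sedentary 1 lay between the other sedentary mice and the exercise group. The difference was a log2 fold change of 1.03 (SE 0.25, 95% confidence interval 0.43 to 1.64, adjusted p = 0.041), or 2.04-fold. Six2 was thereby the 1 DEG among the 9 genes, where 2.78% of all genes were DEGs, 1.72% higher and 1.06% lower. With no scaling its log2 fold change was 0.56 (adjusted p = 0.055) and it was 0.87 in the deposited values (adjusted p = 0.062), so the DEG call depends on the scaling. Against Sedentary 1 alone the exercise mean was higher by 0.50 on the log2 scale. Six2 has a single probe on the array, so no second transcript region was measured.

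Six4, a broadly expressed relative that acts in muscle development, had nearly the same level in both groups. The brightest of its probes gave 1.53, 1.58 and 1.70 in exercised mice and 1.51, 1.52 and 1.53 in sedentary mice. All exercise values were above all sedentary values, but by no more than 0.003 at the nearest pair. The log2 fold change was 0.09 (95% confidence interval -0.12 to 0.29, adjusted p = 0.491), and it turned negative with no scaling and in the deposited table of values. Against Sedentary 1 alone it was 0.10. A further probe to the same transcript gave 0.01, and a probe to another transcript (NM_001362272), bright enough on 4 of 6 arrays, gave -0.48 (adjusted p = 0.208 over all probes). The last Six4 probe, to that same transcript, was not well above background on any array. The changes of Six2 and Six4 were also set against each other on the same arrays. Six2 minus Six4, set to 0 at its sedentary mean, was 1.28, 0.81 and 0.76 with exercise and 0.54, -0.34 and -0.21 without. This within-array difference does not depend on scaling by a factor, and it put every exercised mouse above every sedentary mouse, by 0.40 on average against Sedentary 1 alone.

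The promoter windows of Six2 and Six4 are shown because Six2 passed the test and its relative Six4 did not. They cover 250 bases before to 50 after a transcription start, from RefSeq on GRCm38.p6, written along the gene's strand. Capitals mark motif letters, found on either strand. MEF3, bound by Six2 and its relatives, was searched as TCAGGTT. The motif of Tead factors, named MCAT, was searched as CATTCC. For Sox factors the letters were AACAAT, and for NFAT, a calcium-driven activator of slow-twitch genes, they were GGAAAA. T-box factors such as Tbx15 bind the letters GGTGTGA. No 2 marked matches overlapped in the windows printed.
Six2, chr17:85688205-85688504, minus strand: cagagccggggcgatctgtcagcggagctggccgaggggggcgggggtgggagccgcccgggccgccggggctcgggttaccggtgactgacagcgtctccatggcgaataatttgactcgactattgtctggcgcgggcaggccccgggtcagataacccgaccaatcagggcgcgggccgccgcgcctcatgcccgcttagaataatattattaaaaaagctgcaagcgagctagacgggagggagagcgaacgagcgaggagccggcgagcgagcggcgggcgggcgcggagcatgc
Six4, chr12:73113196-73113495, minus strand: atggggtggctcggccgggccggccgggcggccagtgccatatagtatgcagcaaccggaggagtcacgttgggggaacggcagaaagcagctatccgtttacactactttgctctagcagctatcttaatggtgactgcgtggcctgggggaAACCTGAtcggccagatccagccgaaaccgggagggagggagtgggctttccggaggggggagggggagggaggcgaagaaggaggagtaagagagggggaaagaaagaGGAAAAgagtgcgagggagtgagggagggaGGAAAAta
The Six2 window held none of these motifs and no E-box (CANNTG). The Six4 window held 1 MEF3 and 2 NFAT matches. Of 32851 such windows in the mouse table, 4.1% held MEF3 letters and 23.4% NFAT letters, so the Six4 MEF3 match is the less common kind. A second Six4 start, which overlaps it, had 1 NFAT match and no MEF3 match.

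Among the Eya coactivators, which are also protein phosphatases, the probes moved in different directions and none of the 3 genes passed the test. Eya1, known for driving fast-twitch genes, was 6.17, 6.18 and 6.37 in exercised mice and 6.01, 5.86 and 5.75 in sedentary mice. The groups did not overlap, and the log2 fold change was 0.37 (95% confidence interval 0.11 to 0.63, adjusted p = 0.063), or -0.10 with no scaling. Against Sedentary 1 alone it was 0.23.

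Eya3 was 2.01, 2.05 and 2.16 with exercise and 2.36, 2.35 and 2.41 without. The sedentary values were within 0.054 of each other and all above the exercise values. Its log2 fold change was -0.30 (95% confidence interval -0.50 to -0.10, adjusted p = 0.052), just outside the threshold, and -0.29 against Sedentary 1 alone. A dimmer probe gave -0.52 (adjusted p = 0.067 over all probes), and another was not well above background on any array. Eya3 was also the gene that alternatives most often brought inside the threshold, in 7 of 18, all of them with exercise lower.

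Eya4 was 2.18, 2.05 and 2.22 in exercised mice and 2.33, 2.28 and 2.25 in sedentary mice. Its log2 fold change was -0.14 (95% confidence interval -0.35 to 0.07, adjusted p = 0.287), and -0.18 against Sedentary 1 alone. The other Eya4 probes gave larger differences of -0.31 (adjusted p = 0.071 over all probes) and -0.32 (adjusted p = 0.088 over all probes), so the 3 probes shared a direction and differed in size.

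The Eya genes were set against each other within each array. Eya1 minus Eya3, set to 0 at its sedentary mean, was 0.66, 0.64 and 0.72 in exercised mice and 0.15, 0.01 and -0.16 in sedentary mice. The exercise mean was higher by 0.67 on the log2 scale, and by 0.53 against Sedentary 1 alone. The pair was chosen after its values were seen and neither gene passed the test, so this is a description, with no test. Because Eya1 lay higher and Eya3 lower without overlap, the separation of the groups follows from the single genes. Eya3 minus Eya4 moved by only -0.16, with no overlap between groups.

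Tbx15, a T-box factor, was 3.57, 3.33 and 3.63 with exercise and 3.12, 2.77 and 2.66 without. All exercised mice were above all sedentary mice, and Sedentary 1 was again the highest of its group. The log2 fold change was 0.66 (SE 0.15, adjusted p = 0.036), or 1.58-fold, and 0.39 against Sedentary 1 alone. With no scaling it was 0.19 (adjusted p = 0.241), and in the deposited values 0.50 (adjusted p = 0.075), so the call depends on the scaling. A second, dimmer probe to the same transcript was -2.65, -2.81 and -2.43 in exercised mice and -2.85, -3.22 and -3.67 in sedentary mice. That probe gave a similar log2 fold change of 0.62, but with a wider interval of 0.08 to 1.15 (adjusted p = 0.103 over all probes).

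Sox6, an HMG box repressor of slow-twitch genes, was 3.77, 3.69 and 4.01 with exercise and 3.39, 3.11 and 3.05 without. The groups did not overlap. The log2 fold change was 0.64 (SE 0.13, adjusted p = 0.031), or 1.56-fold, which was the smallest p among the 9 genes, and 0.43 against Sedentary 1 alone. With no scaling it was 0.16 (adjusted p = 0.282), and in the deposited values 0.48 (adjusted p = 0.068), so this call depends on the scaling too. The brightest probe was to transcript NM_001277327. Of the other 2 probes, both to NM_011445, 1 rose by 0.55 (adjusted p = 0.039 over all probes) and the other gave 0.39 (adjusted p = 0.151 over all probes). On that last probe, Sedentary 1 at -1.81 lay among the exercise values of -1.87, -1.80 and -1.64.

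Prox1, a homeodomain factor, moved the other way. Its level was -2.36, -2.33 and -2.10 in exercised mice and -1.84, -1.14 and -0.88 in sedentary mice. Sedentary 1 was nearest to the exercise group, though still above it. Prox1 fell by 0.97 on the log2 scale (SE 0.25, adjusted p = 0.046), to 0.509 times the sedentary level, and the difference was -0.42 against Sedentary 1 alone. It was -0.53 with normexp and quantile normalization (adjusted p = 0.039) and -0.90 with quantile normalization (adjusted p = 0.061). With no scaling it was -1.45 (adjusted p = 0.015), and in the deposited values -1.13 (adjusted p = 0.038). The size of the fall of Prox1 therefore depends on the processing. A second probe was -2.13, -2.35 and -2.50 with exercise and -1.43, -1.39 and -1.22 without, and fell by 0.98 (SE 0.13, adjusted p = 0.024 over all probes). On that probe the sedentary mice lay close together, and Sedentary 1 was the lowest of them by a small margin.

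Prox1 is also the defining factor of lymphatic endothelium, so the markers of those cells stand beside it. Of 6 lymphatic markers, 5 were tested and 0 passed in either direction by limma, with 0 under an unadjusted p of 0.05 as well. All 5 differences were below 0, between -0.50 and -0.02, with a median of -0.24. Their summed level, in multiples of P75, was 18.8 to 20.4 in exercised mice and 20.4 to 23.2 in sedentary mice. The part of lymphatic cells in the fall of Prox1 was not tested.

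Sox6 and Prox1, which are known for opposite effects on slow-twitch genes, were compared within arrays. Sox6 minus Prox1, set to 0 at its sedentary mean, was 1.66, 1.54 and 1.63 in exercised mice. In sedentary mice it was 0.75, -0.22 and -0.54. The exercise values lay within 0.11 of each other and all above the sedentary values, by 1.61 on average and by 0.86 against Sedentary 1 alone. Because Sox6 was higher and Prox1 lower without overlap, this separation follows from the single genes and adds no support. The pair was chosen after its values were seen, so this is a description, with no test.

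**Figure D2:**
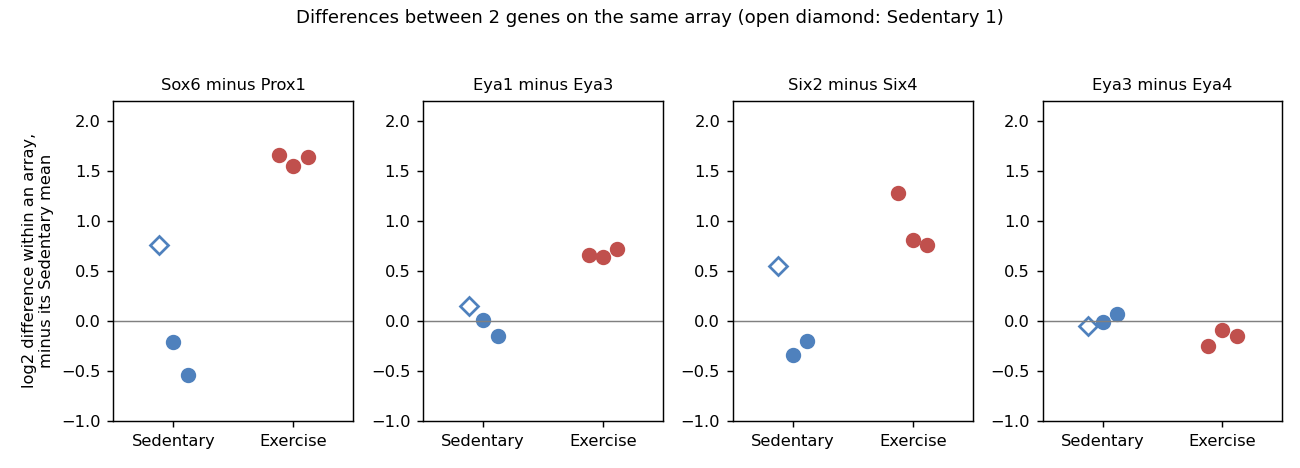
Log2 difference between 2 genes on the same array, set to 0 at the sedentary mean of each pair, for the 3 sedentary arrays (Sedentary 1 as an open diamond) and the 3 exercise arrays. The pairs were chosen after the values were seen, and the groups do not overlap in any of the 4. For Sox6 minus Prox1 and Eya1 minus Eya3 that follows from the single genes, which moved in opposite directions without overlap.

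The windows of Sox6 and Prox1 with the most motif matches are shown, with the same capitals.
Sox6, chr7:115824661-115824960, minus strand: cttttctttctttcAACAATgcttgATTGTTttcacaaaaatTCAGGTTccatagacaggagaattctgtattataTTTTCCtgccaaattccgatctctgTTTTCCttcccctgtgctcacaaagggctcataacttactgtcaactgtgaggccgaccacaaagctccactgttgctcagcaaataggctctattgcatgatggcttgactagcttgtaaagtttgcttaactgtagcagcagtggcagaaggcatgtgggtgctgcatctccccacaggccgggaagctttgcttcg
Prox1, chr1:190170778-190171077, minus strand: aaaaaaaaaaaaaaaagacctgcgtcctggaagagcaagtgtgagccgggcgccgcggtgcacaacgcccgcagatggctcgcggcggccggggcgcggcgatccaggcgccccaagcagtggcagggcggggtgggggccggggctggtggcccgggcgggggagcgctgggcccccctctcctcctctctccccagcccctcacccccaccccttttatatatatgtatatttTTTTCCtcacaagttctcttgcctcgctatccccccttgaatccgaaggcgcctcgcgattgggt
This Sox6 window, 1 of 6 listed for the gene, held 2 Sox, 1 MEF3, 2 NFAT and 2 E-box matches. Sox letters were found in 10.7% of all windows. Elsewhere, MCAT letters were in 2 other Sox6 windows and T-box letters in 1 of these, against 14.7% and 4.0% of all windows. The Prox1 window held 1 NFAT and 2 E-box matches, and E-box letters were in 72.3% of all windows. In all, 7 of the 9 genes had 15 windows, and NFAT letters were in 7 of these 15, at Eya4, Prox1, Six4, Sox6 and Vgll2. Over all windows the share with NFAT letters was 23.4%. The 15 are not independent, as the windows of Six4 overlap, those of Eya4 overlap, and 6 belong to Sox6. Eya1 and Tbx15 had no listed window. Which start was used in these muscles was not measured.

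Vgll2 did not pass the test. It was 5.65, 5.58 and 5.62 in exercised mice and 5.75, 5.50 and 5.50 in sedentary mice, and the exercise values lay inside the sedentary range. The log2 fold change was 0.03 (95% confidence interval -0.21 to 0.28, adjusted p = 0.831), and a second probe gave 0.03 as well. Its sign turned under 7 alternatives with a test, quantile normalization and no scaling among them, so no direction is given for Vgll2. With no scaling it passed as lower (-0.44, adjusted p = 0.019), and against Sedentary 1 alone it was -0.13.

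**Figure D3:**
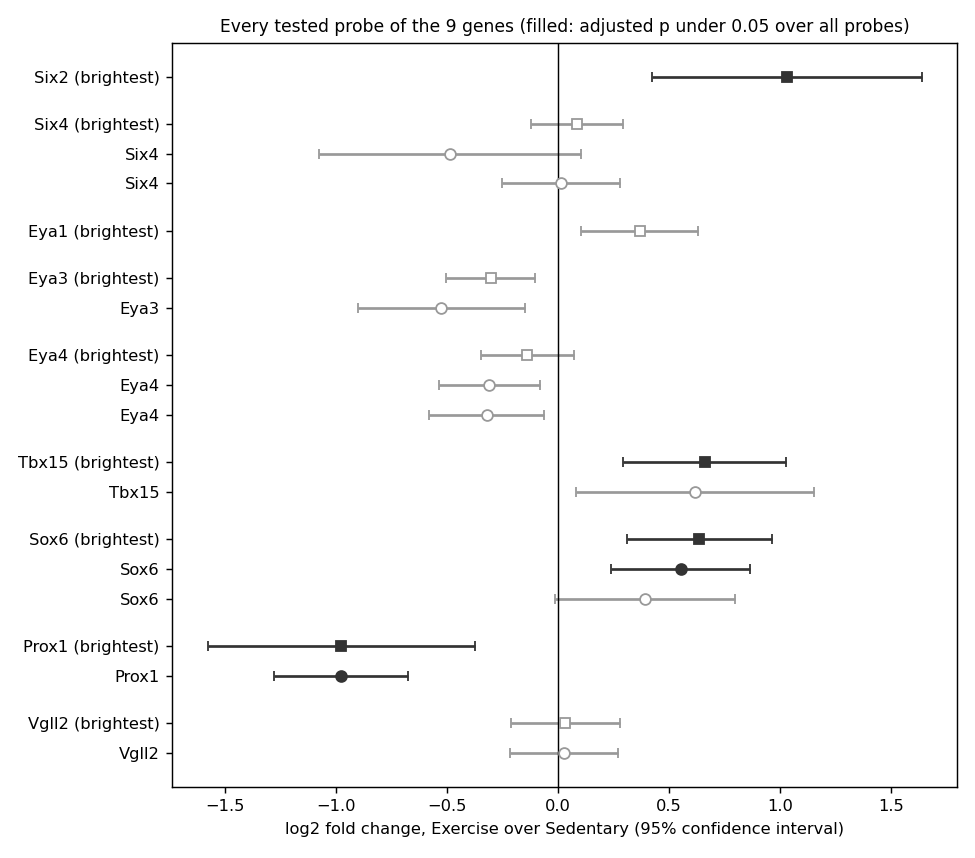
Log2 fold change (exercise over sedentary) and 95% confidence interval of all 19 tested probes of the 9 genes, with squares for the brightest probe of a gene and filled symbols for an adjusted p under 0.05 over all probes. The Prox1 probes lie at -0.97 and -0.98, the Tbx15 and Sox6 probes lie at 0.39 or above, and the Six4 probes straddle 0.

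Over all probes tested, 16.2% passed, 10.5% as higher and 5.65% as lower, and of the 19 probes of these genes 6 did, 4 higher and 2 lower. Of the 7 genes with more than 1 tested probe, 6 had all probes on one side of 0. Six4 was the exception.

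Similarity to other genes was measured as Pearson r over the 6 arrays, which share the group difference and the scaling, so it is a description only. For Six2 the highest values among named genes were 0.999 with Tdpoz8 and 0.998 with Zfp280b and with Ptgr2. For Tbx15 they were 0.9997 with Spn, 0.999 with Mms22l and 0.999 with Mpp6. For Sox6 they were 0.998 with Patl1, 0.998 with Cfhr2 and 0.998 with Klhl23. For Prox1 the values given here were 0.9997 with Cyld and 0.999 with Zscan18. Among the 9 genes themselves, Sox6 and Eya1 were most alike, with r of 0.989, followed by Tbx15 and Sox6 with 0.983. Six2 and Prox1 were the most opposed, with r of -0.96.

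The partners of these factors moved in both directions. Of 13 other genes of the Six2, Eya, Dach, Vgll and Tead families, 10 were tested, and Six3, Six6 and Vgll1 were too dim. Of the 10, 2 passed as higher and 2 as lower, where 11.5% of all genes passed as higher and 6.12% as lower. Their median log2 fold change was -0.001, beside 0.03 over all genes. Tead1, which binds MCAT motifs, was higher by 0.46 (adjusted p = 0.049), or -0.014 with no scaling and 0.31 against Sedentary 1 alone. Over all probes that same probe had an adjusted p of 0.051. The other Tead1 probes gave 0.50 (adjusted p = 0.025 over all probes) and 0.24 (adjusted p = 0.303 over all probes). Tead3 was lower by 0.37 on the log2 scale (log2 fold change -0.37, adjusted p = 0.033).

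Of the Dach corepressors, Dach1 was 0.84 on all 3 exercise arrays and 1.37, 1.45 and 1.29 on the sedentary arrays, and fell by 0.53 (SE 0.08, adjusted p = 0.023). Dach2 was -4.10, -3.06 and -2.99 with exercise, whereas no sedentary array gave a signal well above background. As scaled here it was at least 2.72-fold higher in exercised mice, where the bound sets the exercise mean against the lowest signals well above background. With normexp and quantile normalization the log2 fold change of Dach2 was only 0.35 (adjusted p = 0.058), so the bound does not hold there. Dach2 is 1 of the 2 partners counted as higher, but it met the filter on dim probes only through the exercise arrays, so its passing the test is no support. The other 4 Dach2 probes were not well above background on any array. By their brightest probes, the 6 partners that did not pass had log2 fold changes of -0.32 to 0.24. Tead4 was 0.13 by that probe, but a dimmer probe, well above background on 5 of 6 arrays, gave -0.59 (adjusted p = 0.028 over all probes).

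Of 27 other regulators of fibre type, 5 were higher and 1 was lower, with a median of 0.16. The shares over all genes were 11.5% and 6.12%. These counts were 1 and 1 with quantile normalization, 1 and 2 in the deposited table, and 0 and 9 with no scaling. Maf, a driver of the fastest fibres, was higher by 0.72 (adjusted p = 0.044), and by 0.38 against Sedentary 1 alone. Thra, a thyroid hormone receptor, was higher by 0.62 (adjusted p = 0.023), Srf by 0.44 (adjusted p = 0.033), Smarcd3 by 0.40 (adjusted p = 0.038) and Esrra by 0.38 (adjusted p = 0.043). With no scaling, Srf, Smarcd3 and Esrra turned to -0.032, -0.073 and -0.096. Hdac4, a repressor that rises when a muscle loses its nerve, fell by 0.63 (adjusted p = 0.038).

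Lists of fast-twitch and slow-twitch muscle genes were read beside these factors. Whether the factors act on these genes was not tested. Of 20 fast-twitch genes, 18 were higher and none was lower, with a median log2 fold change of 0.88. The 18 became 5 with quantile normalization and 12 with no scaling, while none was lower in either. They became 0 when any single array other than Sedentary 1 was left out, but at most 1 of all genes passed in those fits. Pvalb, a calcium buffer of fast fibres, was higher by 1.67, and Myh4, the fastest myosin heavy chain, by 0.83 (adjusted p = 0.037). For both, Sedentary 1 lay nearest to the exercise group. Pvalb was 9.38 on Sedentary 1, between the sedentary mean of 8.59 and the exercise mean of 10.26. Myh4 was 9.16 on Sedentary 1, between means of 8.78 and 9.61. Of 15 slow-twitch genes, 1 was higher and 2 were lower, with a median of -0.45. The 2 lower genes became 7 with no scaling, 5 with normexp and quantile normalization, and 4 with quantile normalization and in the deposited table. Tnni1, the slow troponin I that Sox6 is known to repress, fell by 1.45 (adjusted p = 0.028), and Atp2a2, the slow calcium pump, fell by 0.79 (adjusted p = 0.038). Myl3, a slow myosin light chain, rose by 0.97 (adjusted p = 0.024). Myh7, the slow myosin heavy chain, ranged from 0.99 to 3.69 in exercised mice and from 1.66 to 3.95 in sedentary mice, with no difference detectable over that spread (adjusted p = 0.792).

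**Figure D4:**
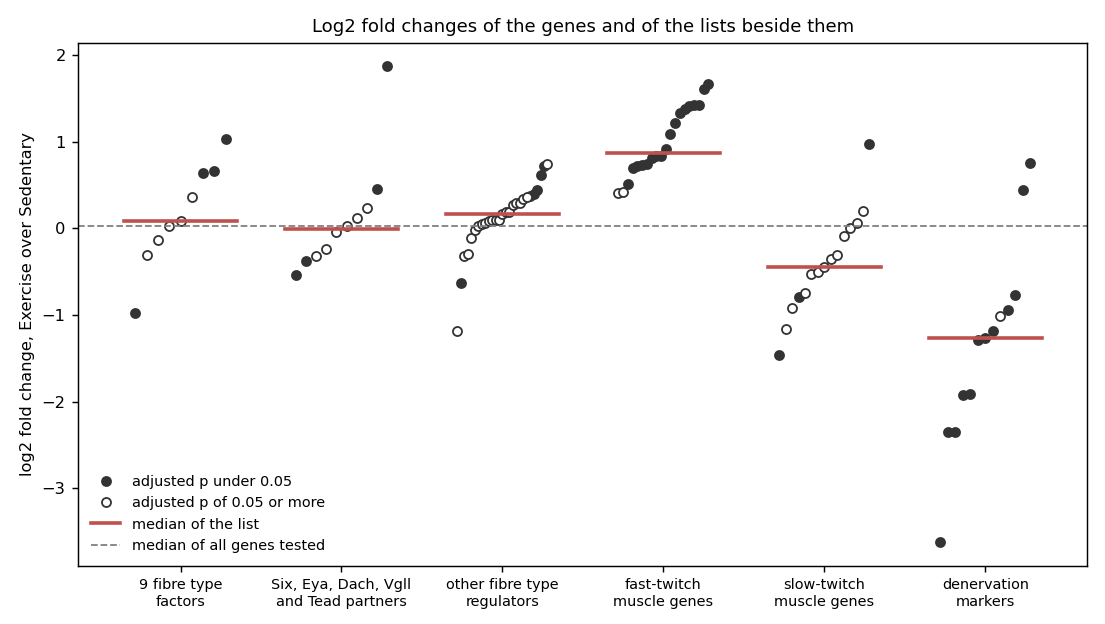
Log2 fold change (exercise over sedentary) of each tested gene in 6 lists, sorted within a list, with filled points for an adjusted p under 0.05, a red line at the median of the list and a dashed line at the median of all genes. The 9 fibre type factors spread from -0.97 to 1.03 around a median of 0.09, while the fast-twitch genes lie wholly above 0.

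Signs of denervation and of cell makeup moved with the groups too. Of 13 denervation markers, 2 were higher and 10 were lower in exercised mice, with a median of -1.27. No denervation marker passed when any single array other than Sedentary 1 was left out, but at most 1 of all genes passed in those fits. Chrng, the fetal subunit of the acetylcholine receptor, fell by 3.62 (adjusted p = 0.030). Its level was -1.94, -1.56 and -1.11 with exercise and 0.28, 2.84 and 3.12 without. Sedentary 1 thus lay nearest to the exercise group, and the fall was smaller against it alone. The 2 that rose were Myh8, a perinatal myosin heavy chain, by 0.75, and Hdac9, a repressor known to fall after denervation, by 0.44. The Myh8 probe was brighter than that of Myh4, with means of 10.19 with exercise and 9.44 without, against 9.61 and 8.78. Whether the Myh8 probe reads perinatal myosin alone was not tested. Of 8 skeletal muscle markers, 6 were higher and none was lower, with a median of 0.72. The summed level of the muscle markers was 1980 to 2256 times P75 in exercised mice and 973 to 1288 in sedentary mice, with Sedentary 1 the highest of its group. Of the satellite cell markers, Pax7 fell by 0.60 (adjusted p = 0.026), none rose, and Myf5 was too dim to test. Among fibroblast (8 tested), tendon (6), blood endothelial (7), red blood cell (5) and macrophage (6) markers, 0 of 32 passed by limma, and 4 were under an unadjusted p of 0.05, all of them tendon markers that were lower. Of 6 Schwann cell markers, all with differences below 0, 1 was lower. Of 6 adipocyte markers, 5 had differences below 0 that did not pass, with a median of -0.75 over the list, and Lep alone passed, as higher by 0.35. The part of fibre content or denervation in the values of the 9 genes was not tested.

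The sign of Six2, Tbx15, Sox6, Prox1, Eya3 and Eya4 stayed the same under all alternatives run, whereas that of Eya1, Six4 and Vgll2 did not. Significance was less stable. Of 18 alternatives with a test, Six2 passed in 8, Tbx15 in 6, Sox6 in 8 and Prox1 in 9. All 4 lost the threshold when any single array other than Sedentary 1 was left out, with adjusted p from 0.065 to 0.143. In each of those fits at most 1 of all genes passed, so the loss is not particular to these 4. All 4 passed without Sedentary 1, with adjusted p of at most 0.020. With strip as a block in the fit, the comparison lies within the first strip and rests on 1 sedentary array. The log2 fold changes were then 0.50 for Six2, 0.39 for Tbx15, 0.43 for Sox6 and -0.42 for Prox1.

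**Figure D5:**
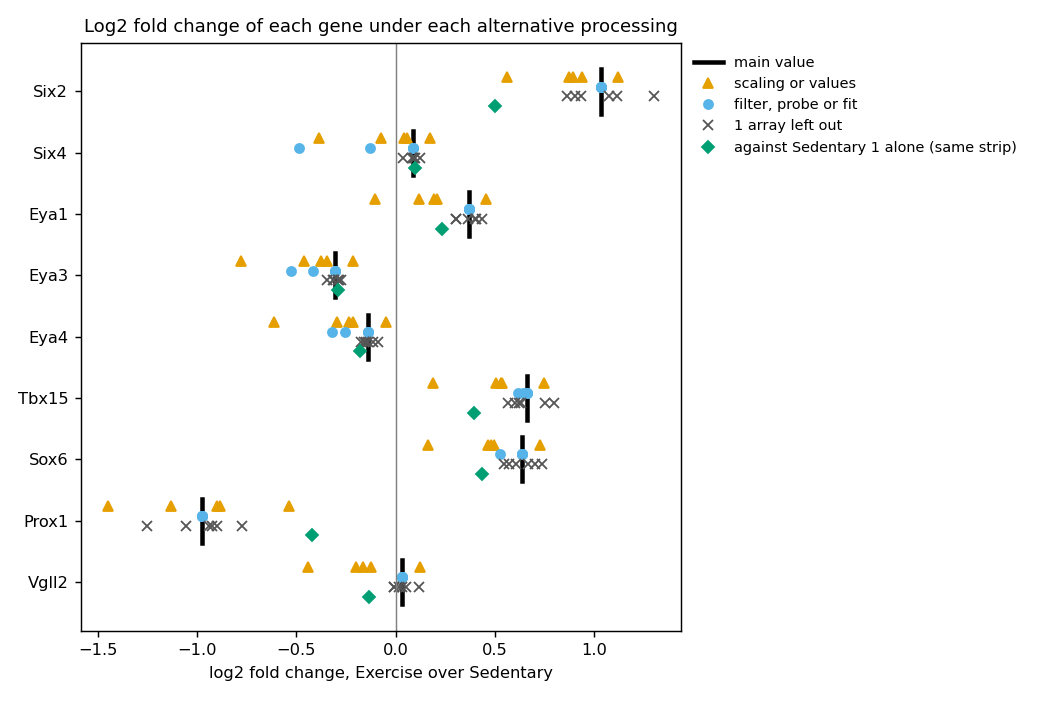
Log2 fold change (exercise over sedentary) of each gene as reported (black bar) and under other scalings or values, other filters, probes or fits, with 1 array left out, and against Sedentary 1 alone. Six2, Tbx15 and Sox6 stay above 0 and Prox1 below 0 throughout, and values against Sedentary 1 are closer to 0 than those reported for these 4 genes, while Eya1, Six4 and Vgll2 fall on both sides of 0.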

How the data were processed

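Quadriceps RNA of 3 exercised and 3 sedentary AR97Q mice was measured on 1-colour Agilent SurePrint G3 mouse arrays, with RNA integrity numbers of 8.4 to 9.2. The authors deposited 1 Agilent Feature Extraction 12.1.0.3 file per array, with the processed signal as a linear intensity. They also deposited a table of values, an intensity that equalled the processed signal times 1 factor per array (1.33 to 1.88), without stating how it was made. The methods name iDEP for differential expression and no scaling between arrays. The paper reports more downregulated than upregulated DEGs with exercise. At the same thresholds, the deposited table gave 237 DEGs higher and 553 lower, a balance in the same direction as the paper's. As scaled here there were 430 higher and 264 lower, so the balance turns with the scaling and is here the reverse of the paper's.

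Here, control spots and outlier spots were left out and spots of a probe averaged. The log2 intensity minus the 75th percentile of each array was used. Probes were kept if flagged well above background on 3 or more of the 6 arrays, and the probe with the highest mean stood for a gene. Groups were compared with limma 3.58.1 (lmFit, eBayes, R 4.3.3), two-sided, with Benjamini-Hochberg adjustment. Results over all probes used the same fit. Precision is limited by the 3 arrays a group, and an exact permutation test of a single gene could not go below p = 0.1, so none is given. The fit was tested on simulated data. Of 56605 probes, 34566 had a name through RefSeq accessions and 22039 had none. No spot was saturated. Scalings, background correction, filters, probe choice, blocks and each array left out were tried as alternatives. A list's named genes were those past the test with the largest change, at most 4 in each direction, and the brightest gene, besides all 9 factors and their partners. Myh4, Myh7 and the pairs of genes set against each other within arrays were chosen after their values were seen. The 9 genes and the lists were chosen with earlier results of these data known, so their counts are descriptions. Some of the genes compared are not reported here.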

Additional observations from a re-analysis of the deposited data

How the results depend on the processing

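Under the alternatives, the number of the 9 genes that passed as higher (3) was 1 with quantile normalization and when probes of a gene were averaged, and 0 with no scaling, in the deposited table, with the strip block and with the replicate block. The number that passed as lower (1) was 5 with no scaling, 2 with normexp and quantile normalization, in the deposited table, with the filter on all 6 arrays and with a trended, robust eBayes, and 0 with the strip block and the replicate block. With single arrays left out, the counts were 0 to 4 higher and 0 to 1 lower, with calls only without Sedentary 1.

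Over all genes, 2868 passed as higher and 1530 as lower. Higher counts were 1864 with quantile normalization, 617 with no scaling, 1172 in the deposited table, 9741 with no filter on dim probes and 0 with the strip block. Lower counts were 875 with the array median, 11280 with no scaling, 3201 in the deposited table and 3 with the strip block. Leaving out single arrays gave 0 to 3476 higher and 0 to 2060 lower. Without Exercise 1, without Exercise 2, without Exercise 3, without Sedentary 2 and without Sedentary 3, limma gave at most 1 call, while 6686 to 8146 genes were under an unadjusted p of 0.05, against 9249 with all arrays. The strip block left 4827 such genes and no scaling 14540. The share of passing genes that were higher was 55.2% with normexp and quantile normalization and 83.5% with no filter. The cause was not tested.

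Signs turned for Six4 with no scaling (-0.39), in the deposited table (-0.072), with the mean of its probes (-0.13) and with its most variable probe (-0.48). Eya1 turned with no scaling (-0.10). Vgll2 turned with quantile normalization (-0.20), no scaling (-0.44), normexp and quantile normalization (-0.16), the deposited table (-0.12), and the strip block (-0.13), and lay between -0.0081 and 0.12 with single arrays left out, below 0 without Sedentary 2 and without Sedentary 3. With no scaling, Tead1 (-0.014), Srf (-0.032), Smarcd3 (-0.073) and Esrra (-0.096) turned as well.

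The arrays carry replicate numbers, and same-numbered mice deviated from their group means with r of 0.02, 0.08 and 0.04 over all genes. Mice with different numbers gave r of -0.107 to 0.075. With 3 arrays a group, these values cannot settle whether the numbers pair the mice. With the replicate number as a block, 0 genes passed as higher and 0 as lower by limma, the smallest adjusted p was 0.061, and 8591 genes were under an unadjusted p of 0.05.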
